A study of Mus musculus with 6 samples.

Results

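S100 proteins and annexins are 2 families of calcium-binding proteins, and 10 of their genes were examined here in phagocytes of the mouse Peyer's patch: S100a4, S100a6, S100a8, S100a9, S100a10, S100a11, Anxa1, Anxa2, Anxa4 and Anxa5. They were found through the RefSeq accession that the array design gives for each probe. All 10 were on the array, with 14 of its 56605 probes. The cells were LysoDCs carrying the C5a receptor (C5aR+), lysozyme-expressing mononuclear phagocytes sorted from Peyer's patch. The C5a group (3 samples) received 100 nM of recombinant C5a, a fragment of complement component C5, for 3 h, and the untreated group (3 samples) received 0 nM. Cells of both groups were cultured with CSF-1 at 0.1 μg/mL and with a factor the labels spell CFS-2 at 0.5 μg/mL. Each sample was hybridised to 1 single-colour Agilent array. The strain, age and genotype of the animals, and the culture time of untreated cells, are not given in the sources used here.

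S100 proteins are small EF-hand proteins that change shape on binding calcium and then grip a partner protein. S100a8 and S100a9 pair as calprotectin, the abundant cytosolic protein of neutrophils and inflammatory monocytes, and signal through receptors such as Tlr4 once released. Annexins bind acidic phospholipids of membranes when calcium is present. S100a10 binds the amino-terminal tail of annexin A2 and S100a11 that of annexin A1, so that the families meet at membranes, in vesicle traffic and in membrane repair. Anxa1 is also known as a secreted ligand of formyl peptide receptors that damps leukocyte recruitment.

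In the RefSeq annotation all 6 S100 members lie on chromosome 3, where S100a8 and S100a9 are neighbours, S100a5 alone separates S100a4 from S100a6, and a pseudogene alone separates S100a11 from S100a10. Anxa5 lies elsewhere on that chromosome, Anxa4 on chromosome 6, Anxa2 on chromosome 9 and Anxa1 on chromosome 19. The 250 bases before the annotated start are shown for the pair that gave no signal above background (S100a8, S100a9), for the member with the widest spread (S100a6) and for the members with the most positive differences (S100a11, Anxa2). They are RefSeq sequences of build GRCm38.p6, read 5′ to 3′ on the gene's strand, at chr3:90668821-90669070 (plus strand) for S100a8, chr3:90695722-90695971 (minus strand) for S100a9, chr3:90612644-90612893 (plus strand) for S100a6, chr3:93520246-93520495 (plus strand) for S100a11 and chr9:69453433-69453682 (plus strand) for Anxa2. Capitals mark matches on either strand to TATAAA (the TATA box), to CCAAT (the CCAAT box), to GGGCGG (the GC box) and to TGANTCA (the AP-1 site).
S100a8: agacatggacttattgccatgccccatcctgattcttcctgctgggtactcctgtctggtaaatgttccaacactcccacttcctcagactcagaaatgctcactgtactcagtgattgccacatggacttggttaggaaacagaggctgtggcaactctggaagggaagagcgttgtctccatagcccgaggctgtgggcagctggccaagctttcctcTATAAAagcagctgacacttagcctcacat
S100a9: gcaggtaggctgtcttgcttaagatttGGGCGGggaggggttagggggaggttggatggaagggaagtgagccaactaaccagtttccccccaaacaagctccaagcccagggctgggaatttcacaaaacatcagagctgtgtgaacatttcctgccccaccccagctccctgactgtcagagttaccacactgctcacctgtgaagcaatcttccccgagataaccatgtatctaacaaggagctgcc
S100a6: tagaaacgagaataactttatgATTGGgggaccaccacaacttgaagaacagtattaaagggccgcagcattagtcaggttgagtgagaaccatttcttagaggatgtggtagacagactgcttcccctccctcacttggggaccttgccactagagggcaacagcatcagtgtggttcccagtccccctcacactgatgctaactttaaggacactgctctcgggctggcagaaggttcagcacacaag
S100a11: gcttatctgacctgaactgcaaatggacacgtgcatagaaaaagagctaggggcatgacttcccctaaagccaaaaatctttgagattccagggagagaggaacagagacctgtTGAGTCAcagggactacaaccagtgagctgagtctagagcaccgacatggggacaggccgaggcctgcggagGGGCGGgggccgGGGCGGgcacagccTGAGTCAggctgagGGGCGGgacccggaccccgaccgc
Anxa2: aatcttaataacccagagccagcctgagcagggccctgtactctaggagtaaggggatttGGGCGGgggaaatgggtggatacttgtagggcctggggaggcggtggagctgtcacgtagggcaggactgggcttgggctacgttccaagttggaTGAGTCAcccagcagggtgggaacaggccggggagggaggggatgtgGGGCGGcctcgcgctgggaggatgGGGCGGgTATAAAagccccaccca
In these windows S100a11 held 2 matches to TGANTCA and 3 to GGGCGG, and Anxa2 held 1 and 3 with a TATAAA beside them. Over 32851 windows of the same length in the RefSeq table, 6.75% held TGANTCA, 32.7% GGGCGG, 33.8% CCAAT and 12.4% TATAAA. S100a8 held 1 TATAAA, S100a6 held 1 CCAAT on the minus strand, and S100a9 held 1 GGGCGG. Of the members not shown, S100a4, Anxa1, Anxa4 and Anxa5 held 0 matches to TGANTCA and 0 to GGGCGG. S100a4 and Anxa1 each held 1 TATAAA. The letters of these motifs do not overlap each other in the windows shown. A match describes the letters only. S100a10 was not in the sequence table used here.

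The arrays were dim, with 2728 to 6959 probes well above background by Agilent's own flag, so they reach only the brighter transcripts. The 75th percentile of signal over the 2371 probes detected on every array differed 4.23-fold between arrays, the dimmest being untreated 3 and the brightest untreated 2, and each array was scaled to it. In the phagocyte and dendritic cell marker list, 11 of 14 genes were well above background on all 6 arrays, including Lyz1, Itgax, Csf1r and Cd74, while Cx3cr1 and Mertk were on 0. Summed over the 12 tested markers, levels relative to the 75th percentile ran from 40.7 to 55.3 on C5a arrays and from 55.7 to 67.2 on untreated arrays. These sums did not overlap. Without H2-Eb1, an MHC class II gene left out after the values were seen, they ran from 23.3 to 30.5 on C5a arrays and from 24.6 to 31.1 on untreated arrays, and overlapped. Of the 12 markers, 4 had differences above 0 and 8 below, and limma called 0, with 0 at an unadjusted p under 0.05. The part of these markers in the results below was not tested. Of 9 neutrophil markers on the array, 8 were well above background on 0 arrays, including Camp, Ngp, Ltf and Mpo, and only Csf3r was on all 6. All 9 epithelial and all 6 stromal and endothelial markers were at 0 arrays, as were 5 of 6 T cell markers and 3 of 7 B and plasma cell markers.

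**Figure D1:**
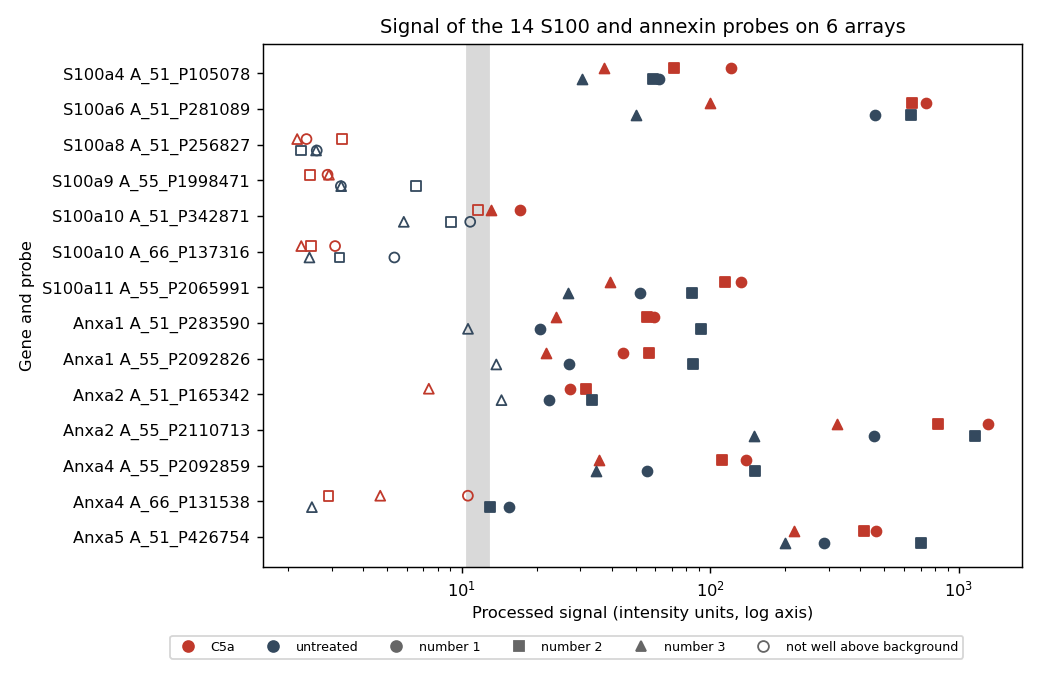
Processed signal (intensity units, log axis) of the 14 member probes on the 6 arrays, C5a in red above untreated in dark blue for each probe, with a marker shape for each replicate number. Open markers were not well above background and the grey band spans the lowest detected signal of the 6 arrays, so S100a8 and S100a9 are open on every array while S100a6, the brighter Anxa2 probe and Anxa5 are filled on all 6.

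Transcripts of 7 members were well above background on at least 3 of 6 arrays, and those of the calprotectin pair stayed at background. S100a4, S100a6, S100a11, Anxa2, Anxa4 and Anxa5 each had a probe well above background on all 6 arrays, and Anxa1 had one on 5. Of the 7 members that passed the detection filter, 6 had their chosen probe on all 6 arrays, where 48.6% of the 4488 genes that passed it did. S100a8, S100a9 and S100a10 did not pass the filter. S100a8 (probe A_51_P256827) gave signals of 2.37, 3.30 and 2.18 intensity units on C5a arrays 1 to 3 and of 2.61, 2.25 and 2.59 on untreated arrays 1 to 3. S100a9 (probe A_55_P1998471) gave 2.88, 2.46 and 2.92 on C5a arrays and 3.26, 6.53 and 3.27 on untreated arrays. The lowest signals flagged as well above background on the arrays ran from 10.5 to 12.8 units, so all 12 of these values lay below that limit. They are not ordered further, since values at background carry no level.

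S100a10, the partner of annexin A2, was at the edge of detection. Its brighter probe (A_51_P342871) had signals of 17.1, 11.6 and 13.1 units on C5a arrays 1 to 3 against 10.8, 9.01 and 5.84 on untreated arrays 1 to 3, and was well above background on C5a 1 and C5a 3 only. The C5a signals lay above all untreated ones before scaling. After scaling, its levels were -3.89, -5.02 and -3.56 (log2, relative to the array's 75th percentile) with C5a and -3.92, -5.67 and -4.22 in untreated cells, and the groups overlapped. Its other probe was well above background on 0 arrays. With 2 arrays above background the gene did not meet the minimum of 3 and was not tested, and the detection limit of the untreated arrays allows no fold. S100a8 and S100a9 were not tested either, which leaves 7 of 10 members with a test.

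**Figure D2:**
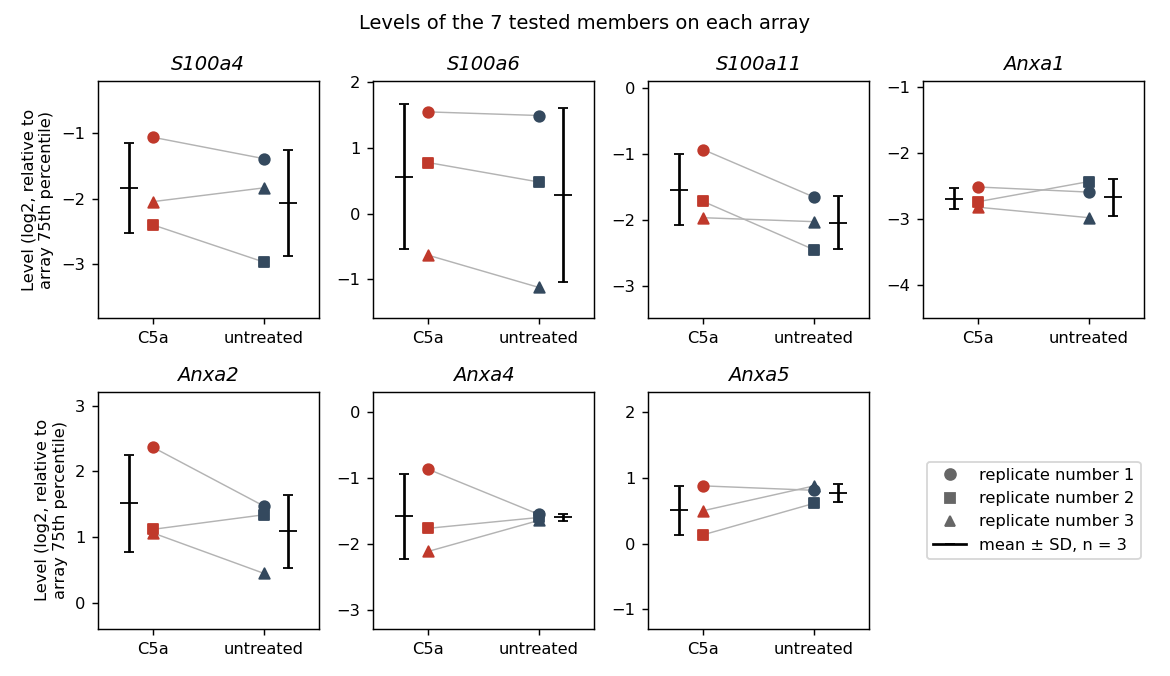
Level of each of the 7 tested members on every array (log2, relative to the array's 75th percentile over detected probes), C5a left and untreated right, with grey lines joining samples of the same replicate number and bars for the mean ± SD (n = 3). Every panel spans the same number of log2 units about its own centre, and S100a6 shows the widest spread, with number 3 lowest in both groups.

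S100a6 and S100a4 had the widest spread within groups of the tested members. For every tested member but S100a11, the pooled SD within groups exceeded the size of the difference between group means. S100a6, also called calcyclin, gave signals of 740, 645 and 99.3 units on C5a arrays 1 to 3 and 459, 641 and 50.05 on untreated arrays 1 to 3. Its scaled levels were 1.54, 0.77 and -0.63 with C5a and 1.49, 0.48 and -1.12 in untreated cells. Sample 3 of each group was the low one, and the groups overlapped over nearly their whole range. Its pooled SD within groups was 1.21, at percentile 95.5 of the 4488 genes tested.

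S100a4, which binds non-muscle myosin and is known for its part in cell motility, had levels of -1.07, -2.40 and -2.05 with C5a and of -1.39, -2.96 and -1.84 in untreated cells. Here sample 2 of each group was the lowest and sample 1 the highest. S100a11 had levels of -0.93, -1.72 and -1.97 with C5a and of -1.65, -2.45 and -2.03 in untreated cells. C5a 1 stood highest and untreated 2 lowest, and the other 4 samples lay between -2.03 and -1.65. The pooled SDs within groups were 0.75 for S100a4 and 0.47 for S100a11, where the median over all genes was 0.47.

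Among the annexins, Anxa1 and Anxa5 were steadier, with pooled SDs within groups of 0.23 and 0.28. That of Anxa4 (0.46) was close to the median over all genes (0.47), and that of Anxa2 (0.65) was above it. Anxa2, which organises membrane and actin and holds plasminogen activators at the cell surface with S100a10, had signals of 1307, 821 and 322 units with C5a and of 455, 1165 and 149 in untreated cells. Scaled, its levels were 2.37, 1.12 and 1.07 with C5a and 1.48, 1.34 and 0.45 in untreated cells. C5a 1 was the highest and untreated 3 the lowest, while the other 4 samples of the groups lay between 1.07 and 1.48.

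Anxa5, whose protein binds phosphatidylserine and is used to stain dying cells, had levels of 0.88, 0.13 and 0.50 with C5a and of 0.81, 0.61 and 0.87 in untreated cells. C5a 2 and C5a 3 lay below all 3 untreated samples, and C5a 1 just above them. Anxa4, a membrane-binding annexin abundant in epithelia, had levels of -0.87, -1.76 and -2.11 with C5a and of -1.55, -1.60 and -1.64 in untreated cells. The untreated samples lay within 0.1 of each other (SD 0.05), inside the range of the C5a samples (SD 0.64). Anxa1 had levels of -2.52, -2.74 and -2.82 with C5a and of -2.59, -2.43 and -2.98 in untreated cells, and the untreated range enclosed the C5a range. Its pooled SD of 0.23 was at percentile 13.99 of all genes.

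The study asks whether C5a triggers signalling in these cells, and a difference past the threshold was found for none of the S100 and annexin genes tested. In limma with Benjamini-Hochberg adjustment over 4488 genes, 0 of 7 members passed an adjusted p of 0.05 (each adjusted p = 0.9994), where 0% of all genes did. At an unadjusted limma p under 0.05 there were 0 members, where 2.36% of all genes were. The 3 C5a samples lay clear of the 3 untreated samples for 0 members, where 5.7% of all genes had groups that did not overlap. The difference was above 0 for 5 of 7 members, against 54.9% of all genes, with a median of 0.23 over the members against 0.04 over all genes. This summary moves with single samples: the difference was above 0 for 2 of 7 members without C5a 1 (median -0.16) and for 3 of 7 without untreated 3 (median -0.01). The labels do not state if the samples of a group are separate animals or preparations, and the p-values measure only their spread, which may be technical. In bulk RNA, a change in the cells present and a change in RNA per cell cannot be told apart.

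S100a11 had the largest difference of the members, at a mean of -1.54 ± 0.54 with C5a and -2.04 ± 0.40 in untreated cells (SD, n = 3 each). The difference was 0.50 on the log2 scale (SE 0.37, 95% interval -0.38 to 1.38). In the 17 other settings tried the difference ran from 0.20 to 1.11 and stayed above 0. A block, a different filter or averaging of probes could not change it, since S100a11 has 1 probe, detected on all 6 arrays. The value of 1.11 came from the fit with the slide row, which rests on C5a 1 alone. Anxa2 followed, with a mean of 1.52 ± 0.73 with C5a and 1.09 ± 0.56 in untreated cells. Its difference was 0.43 (SE 0.46, 95% interval -0.66 to 1.52), and without C5a 1 it was 0.00.

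S100a6 and S100a4 had the widest intervals of the S100 members. S100a6 was at 0.56 ± 1.1 with C5a and 0.28 ± 1.32 in untreated cells, a difference of 0.28 (SE 0.78, 95% interval -1.56 to 2.11). S100a4 was at -1.84 ± 0.69 with C5a and -2.06 ± 0.81 in untreated cells, a difference of 0.23 (SE 0.52, 95% interval -0.99 to 1.44). The sign of S100a6 turned without C5a 1 (-0.21) and without untreated 3 (-0.42), and that of S100a4 without C5a 1 (-0.16) and without untreated 2 (-0.22).

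The other annexins had differences close to 0 or below it. Anxa5 was at 0.50 ± 0.37 with C5a and 0.76 ± 0.14 in untreated cells, a difference of -0.26 (SE 0.29, 95% interval -0.95 to 0.42). Without C5a 1 the Anxa5 difference was -0.45, and without C5a 2 it was -0.08. Anxa1 differed by -0.02 (SE 0.27, 95% interval -0.67 to 0.62), and Anxa4 by 0.02 (SE 0.36, 95% interval -0.84 to 0.88). For the median member the 95% interval reached 0.88 to either side of its difference, a 1.84-fold change, and with the replicate number as a block it reached 0.65, a 1.57-fold change.

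**Figure D3:**
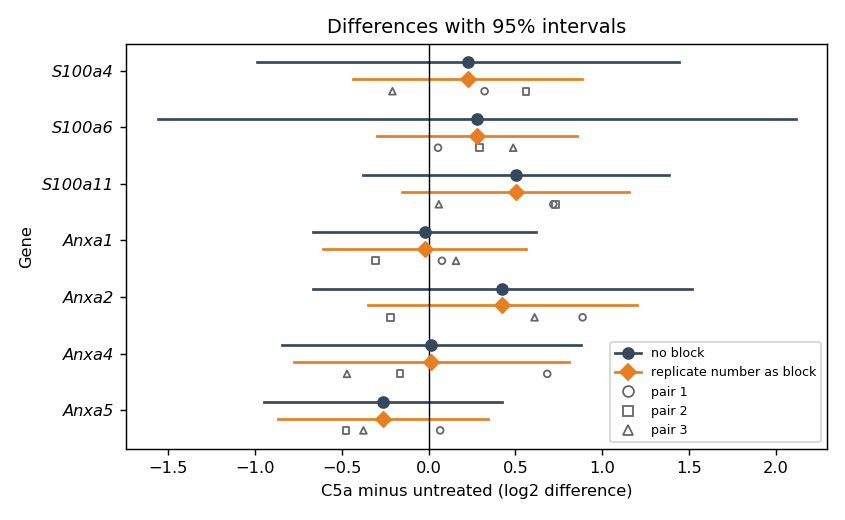
Log2 difference, C5a minus untreated, for the 7 tested members, with 95% intervals from limma without a block (dark blue circles) and with replicate number as a block (orange diamonds), and the difference within each same-numbered pair (open symbols). All 14 intervals cross 0, and the block shortens the interval of S100a6 the most.

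Deviations of same-numbered samples correlated weakly over all genes (0.211 to 0.384), and taking the number as a block narrowed the intervals without bringing a call. The block left each difference as it was and lowered the SE of S100a6 to 0.22, of S100a4 to 0.25 and of S100a11 to 0.25. In the block fit S100a11 had a 95% interval of -0.15 to 1.16 and S100a6 one of -0.30 to 0.85. By limma with the block, 0 of 7 members passed (lowest adjusted p = 0.927), where 0% of all genes did. At an unadjusted p under 0.05 in that limma fit there were 0 members, where 4.26% of all genes were.

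Within the pairs, only S100a6 and S100a11 had a higher C5a value in all 3. The pair differences were 0.05, 0.29 and 0.49 for S100a6 and 0.72, 0.73 and 0.06 for S100a11, in the order of the numbers. These 2 of 7 members stand beside 14.4% of all genes with C5a above untreated in every pair. No member had C5a below untreated in every pair, where 10.8% of all genes did. Anxa5 was lower with C5a in pairs 2 and 3 (-0.48 and -0.37) and differed by 0.07 in pair 1. Anxa4 had 0.68, -0.16 and -0.47, so its difference near 0 averages pairs that went opposite ways.

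The replicate numbers themselves separated some members more than C5a did. They also went with array brightness, the 75th percentile of signal being highest in number 2 and lowest in number 3 of both groups. It was 254, 377 and 154 units on C5a arrays 1 to 3 and 163, 459 and 109 on untreated arrays 1 to 3. Number and array brightness therefore cannot be told apart in the values below. All 7 members were highest in number 1 when the C5a and untreated sample of a number were averaged, where 36.7% of all genes were. S100a6 averaged 1.52 in number 1, 0.63 in number 2 and -0.88 in number 3, so that number 3 stood at -2.39 relative to number 1. S100a4 averaged -1.23, -2.68 and -1.94 in this order, lowest in number 2. In the limma block fit, an F-test of the number had an unadjusted p of 0.00105 for S100a6 and 0.0165 for S100a4, the only 2 of 7 members under 0.05, where 17.9% of all genes were. After Benjamini-Hochberg adjustment over all genes 0 members passed (lowest limma adjusted p = 0.173), and 0% of all genes did.

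This order depends on the scaling. When each array was scaled to its 75th percentile over all probes, 1 of 7 members was highest in number 1 (3.41% of all genes) and all 7 were lowest in number 3 (76.6% of all genes), against 4 of 7 and 44.4% by the scaling used here. With quantile normalization 7 were highest in number 1 (34.7% of all genes), and with normexp background correction followed by quantile normalization 6 were (30.9% of all genes). The low value of S100a6 in number 3 held in all 4 scalings, at -2.09 to -2.79 relative to number 1 and -1.24 to -2.89 relative to number 2.

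The place of an array on the slide was uneven between groups. All 3 untreated arrays and C5a 1 lay in row 1 of the slide, and C5a 2 and C5a 3 in row 2. Within row 1, where C5a 1 alone stands against the 3 untreated samples, all 7 differences were above 0, at 1.27 for Anxa2, 1.26 for S100a6, 1.11 for S100a11, 0.99 for S100a4, 0.73 for Anxa4, 0.15 for Anxa1 and 0.11 for Anxa5. In the limma fit with the row as a covariate 61.8% of all genes also had a difference above 0, with a median of 0.14 over all genes (0.04 without the row), and 0 members passed. C5a 1 is also the number 1 sample, so row, number and C5a cannot be told apart in these values, and row 2 held C5a samples only.

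**Figure D4:**
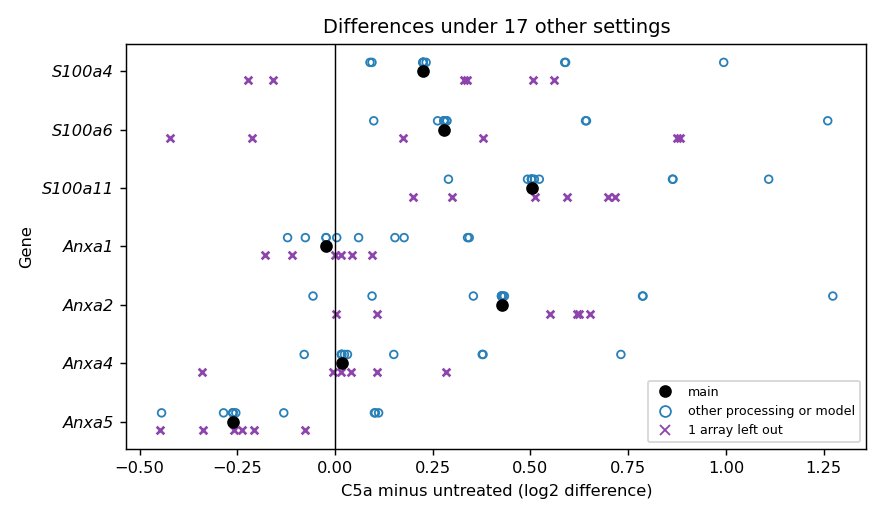
Log2 difference, C5a minus untreated, of the 7 tested members as reported (black) and in the other settings, split into other processing or models (open blue circles) and fits with 1 array left out (purple crosses). Only S100a11 keeps all its points on the side of its reported value, while Anxa1 and Anxa4 straddle 0.

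Where a gene had more than 1 probe, the probes gave different differences for Anxa1 and, over all 6 arrays, opposite signs for Anxa2. They were the only members with 2 tested probes. For Anxa1, the probe used here (A_55_P2092826) is spotted 10 times on each array, and its spots had an SD of 0.18 to 0.73 (log2) within an array. The spot signals ran from 10.99 to 59.5 units on C5a 1, with a median of 52.9, and from 59.2 to 106.3 on untreated 2, with a median of 88.7. The other Anxa1 probe (A_51_P283590) differed by 0.38 (SE 0.36) where the first differed by -0.02, and by both probes untreated 3 was lowest and not well above background.

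The Anxa2 probes had opposite signs. The brighter probe (A_55_P2110713), used above, differed by 0.43 and the other (A_51_P165342) by -0.54 (SE 0.41). The dimmer one had levels of -3.22, -3.58 and -4.38 with C5a and of -2.87, -3.78 and -2.91 in untreated cells, and was well above background on 4 arrays, missing sample 3 of each group. Neither difference passed. Averaging both probes gave -0.06 for Anxa2, so its positive sign rests on the brighter probe.

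Anxa4 and S100a10 each had a second probe below the minimum of 3 arrays. That of Anxa4 (A_66_P131538) had signals of 10.6, 2.91 and 4.70 units with C5a and 15.5, 13.01 and 2.49 in untreated cells, well above background on untreated 1 and 2 only. The probe of Anxa4 used above was well above background on all 6 arrays. S100a4, S100a6, S100a8, S100a9, S100a11 and Anxa5 had 1 probe each, so no second probe bears on them.

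**Figure D5:**
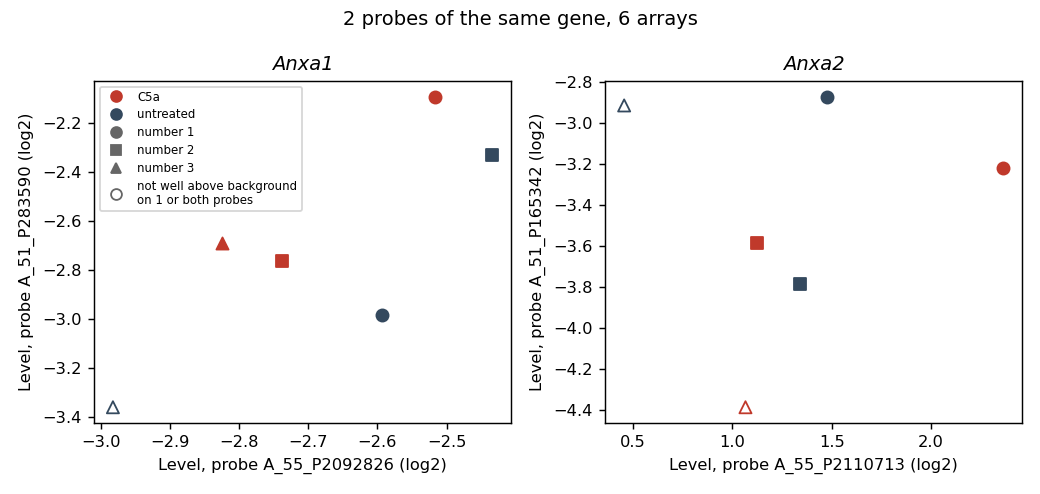
Levels (log2, relative to the array's 75th percentile) of the probe used, on the horizontal axis, and of the other tested probe, on the vertical axis, for Anxa1 (left) and Anxa2 (right) on the 6 arrays. Untreated 3 is lowest on both Anxa1 probes. For Anxa2 it is lowest on the probe used and second highest on the other, where it was not well above background.

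Relatives and partners of the members gave no call either. The wider list held 40 genes, chosen with earlier results of these data known, of which 14 were tested and 23 were well above background on 0 arrays. The limma test called 0 of these 14, where 0% of all genes were called. At an unadjusted limma p under 0.05 there were 0 of the 14, where 2.36% of all genes were. Differences were above 0 for 9 and below 0 for 5, against 54.9% of all genes above 0. The median was 0.04 over the 14 and 0.04 over all genes.

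Among the partners well above background on all 6 arrays was Fpr2, a formyl peptide receptor that binds annexin A1, with means of -2.32 with C5a and -2.25 in untreated cells, a difference of -0.07 (SE 0.54). Ahnak, a giant scaffold bound by annexin A2 and S100a10, differed by 0.05 (SE 0.61). Myh9, the non-muscle myosin heavy chain that S100a4 binds, differed by 0.04 (SE 0.43), and the focal adhesion protein gene Tln1 by 0.09 (SE 0.46). Sugt1, a co-chaperone bound by S100a6, differed by 0.19 (SE 0.28). With the replicate block, 2 of the 14 had an unadjusted limma p under 0.05, where 4.26% of all genes did. Neither passed after adjustment (limma adjusted p = 0.927 at lowest). The 2 genes were Cacybp, the calcyclin-binding protein, at 0.74 (SE 0.24 with the block), and S100a13 at -0.78 (SE 0.25 with the block). Both were named after their values were seen. Cacybp was well above background on 3 arrays and S100a13 on 4. Their largest pair differences, 1.13 for Cacybp and -1.17 for S100a13, were in pair 3. On untreated 3 both genes (-4.45 and -4.95) lay below the lowest level detected on that array (-3.14). S100a13 on C5a 3 (-6.12) also lay below the lowest level detected there (-3.81).

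Taking each gene's deviations from its own mean over the 6 arrays, the gene nearest to S100a6 by root mean square distance was Atxn10 (0.18 log2 units, where the median gene lay at 1.02). The nearest to S100a4 was Emp3 (0.13), to S100a11 P2ry14 (0.16), to Anxa1 Egr2 (0.05), to Anxa2 Vamp8 (0.06), to Anxa4 Bax (0.10) and to Anxa5 Prkd3 (0.08). The nearest member to S100a6 was Anxa2, at 0.61, and 224 genes outside the members were nearer. Anxa1 and Anxa5 were each other's nearest member, at 0.31. Of genes outside the members, 812 were nearer to Anxa1 than Anxa5 was, and 464 were nearer to Anxa5 than Anxa1 was. Distances over 6 arrays that share a slide and a scaling describe these arrays only.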

How the data were processed

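Per the file headers, arrays of design 074809 were read with Agilent Feature Extraction 10.10.1.1 (protocol GE1_1100_Jul11). The deposited intensity of each spot is a processed signal, background-subtracted within the array. Per the file headers no scaling between arrays was applied, and flags (other values, 0 or 1) mark spots well above background, saturated or out of line. Median foreground and background intensity, also deposited, served for normexp (offset 50). The deposited series table holds log2 values. Its columns differ from one another as the scanner values do once these are scaled to the all-probe 75th percentile (100% of differences within 0.02), which settles scale and direction but not how probes were centred. The medians of its columns are 0.01, -0.02 and 0.22 (C5a 1 to 3) and 0.17, -0.08 and 0.18 (untreated 1 to 3).

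Control spots and 112 to 138 outlier spots an array were dropped, and repeated spots averaged as log2. Saturated spots numbered 0. Detection of a probe required the flag on at least 0.5 of its spots. Probes detected on at least 3 of 6 arrays were kept, and each gene took its kept probe with the highest mean, giving 4488 genes. Accessions without versions were named through a RefSeq table of GRCm38.p6 (32994 of 56605 probes). The array design cites mm9, so coordinates of probes and genes are not given; those of the upstream windows are the GRCm38.p6 coordinates of the RefSeq sequence table.

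Groups were compared with limma 3.58.1 (R 4.3.3), C5a minus untreated, with Benjamini-Hochberg adjustment at 0.05, and the code was tested on simulated data. With 3 arrays a group, the number of arrays limits the precision. Named genes are the 10 members, those of the wider list detected on all 6 arrays, and the gene nearest to each tested member. Cacybp, S100a13 and H2-Eb1 were singled out after their values were seen. The members, lists, motifs and rules were chosen with earlier results of these data known. Deviations from group means over all genes correlated at 0.211, 0.269 and 0.384 between same-numbered samples of the 2 groups, and at most 0.0712 between others. Samples of the same number were therefore also compared as pairs. The pairing was not tested, array brightness went with the number in both groups, and the labels do not say what a number marks. Alternatives covered scaling, background, filter, probe choice, block, slide row, array weights, the series table, outlier spots and each array left out.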

Additional observations from a re-analysis of the deposited data

How the results depend on the processing

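The count of members that passed was 0 in the reported fit and in each of the 17 other settings, and so was that of the wider list. The count over all genes was 0 in all of these except without the filter on dim probes, where limma called 47 of 46522 genes, none of them members. With replicate number as a block, 0 members, 0 of the wider list and 0 of all genes passed, and no call changed. The unadjusted limma p was under 0.05 for 106 genes as reported and for 191 with that block. Scaling to the percentile over all probes moved the median of all genes from 0.04 to 0.40 and that of the members from 0.23 to 0.59, which left the distance between them at 0.19. With the slide row as a covariate the members' median was 0.99, by construction from C5a 1 alone, and that of all genes 0.14. With 1 array left out the members' median ran from -0.16 to 0.56, S100a4 from -0.22 to 0.56, S100a6 from -0.42 to 0.88, S100a11 from 0.20 to 0.72, Anxa1 from -0.18 to 0.10, Anxa2 from 0.0023 to 0.65, Anxa4 from -0.34 to 0.28 and Anxa5 from -0.45 to -0.08. The sign of Anxa1 also turned with the percentile over all probes (0.34), quantile normalization (0.0044), normexp with quantile normalization (0.060), the mean of kept probes (0.18), the slide row (0.15) and the series table (0.34). That of Anxa5 turned with the percentile over all probes (0.10), the slide row (0.11) and the series table (0.10), that of Anxa2 with the mean of kept probes (-0.056) and that of Anxa4 with array weights (-0.079). The cause of these turns was not tested, and none passed a test. The count of members highest in number 1, 7 as reported, was recomputed under 3 scalings chosen after seeing the data and was 1 with the percentile over all probes. Dim signal limits what can be said of S100a8, S100a9 and S100a10.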
